A study of Gallus gallus with 34 samples.

Results

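The change in gene expression between day 1 and day 2 of myopia induction was described in 8 of the 34 chicks of the series, 4 that wore a negative lens for 1 day and 4 that wore it for 2 days. All 34 were male Leghorn/New Hampshire chicks, and each of the 8 wore a lens of -10 diopters over the right eye. In every lens condition the chicks were aged 6 days post-hatch on day 1, 7 days on day 2 and 8 days on day 3. The remaining 26 chicks belonged to 7 groups, which were the negative lens at 3 days, a positive lens of 10 diopters at 1, 2 or 3 days and No Lens at 1, 2 or 3 days. Messenger RNA was sequenced from the retina, retinal pigment epithelium (RPE) and choroid of the right eye, collected as 1 piece. The chicks of the 2 days were different animals, and the study had picked those with strong and similar eye responses for sequencing, so the change was measured between groups of chicks and not within a chick.

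A negative lens moves the focus behind the retina, and the young chick eye answers by growing longer until it matches the lens, which leaves it myopic. The retina drives this growth locally, through the RPE and the vascular choroid to the sclera, and the choroid thins while the eye elongates. Beside neurons and glia the tissue therefore holds pigment cells, vessels, connective tissue and resident immune cells. Interferons are signal proteins that cells release on sensing foreign nucleic acid, and they switch on a large set of antiviral genes through receptors, Janus kinases and transcription factors.

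The 8 libraries held 3447367 to 11360907 counted reads, and mitochondrial genes took 3.84 to 6.22% of them. Each of the 12 pairs of chicks within a day differed beyond counting error, with a chi-square per gene of at least 2.78, and all were kept as separate replicates. Defining markers of the labelled tissue were present on both days. Mean levels were 2360 and 2340 CPM (counts scaled to a common library size) for GLUL of Mueller glia, 824 and 727 CPM for RPE65 of the pigment epithelium and 365 and 314 CPM for MYH11 of smooth muscle. Along the main axis of variation among the 8 chicks (55.1% of the variance of log2 CPM) the days were mixed. Chick 1 of day 1 and chick 1 of day 2 stood apart together at scores of -32.6 and -52.7, while the other 6 lay between -7.79 and 25.4. Both chicks had the lowest mean log2 level of 7 smooth muscle and pericyte markers, at -0.89 and -0.80 relative to the day 1 mean, against -0.46 to 0.53 in the others. The next axis (11.6%) separated the days, with scores of -24.2 to -4.97 on day 1 and 7.84 to 15.5 on day 2.

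Few single genes were differentially-expressed between day 1 and day 2, and those that passed edgeR's quasi-likelihood test after adjustment were decreases. Among the decreases passed by DESeq2 were 6 genes of the interferon response, the connective tissue growth factor gene CTGF, the myosin gene MYH9, the polyamine enzyme gene ODC1 and the channel subunit gene KCNMB2. Of 11368 genes tested with edgeR's quasi-likelihood test, 3 passed a Benjamini-Hochberg adjusted p-value of 0.05 (0.0264%), and all 3 fell. Where edgeR is named alone below, this quasi-likelihood test is meant. At an unadjusted p-value below 0.05, 406 genes were lower on day 2 (3.57%) and 227 were higher (2%). The normalized levels of the 4 chicks of day 2 lay wholly below those of day 1 for 271 genes (2.38%) and wholly above for 137 genes (1.21%). The log2 fold change was below -1 for 51 genes and above 1 for 13 genes, while the median over all genes tested was 0.02. DESeq2 with shrunken fold changes, the tool the study used for its list, passed 23 genes (0.183%), of which 22 fell and 1 rose. The likelihood ratio test of edgeR called 26 of 11368 genes, and these held all 23. All 23 stand among the 24 genes that the study lists for this contrast, which were selected on these same chicks and are no independent evidence.

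**Figure D1:**
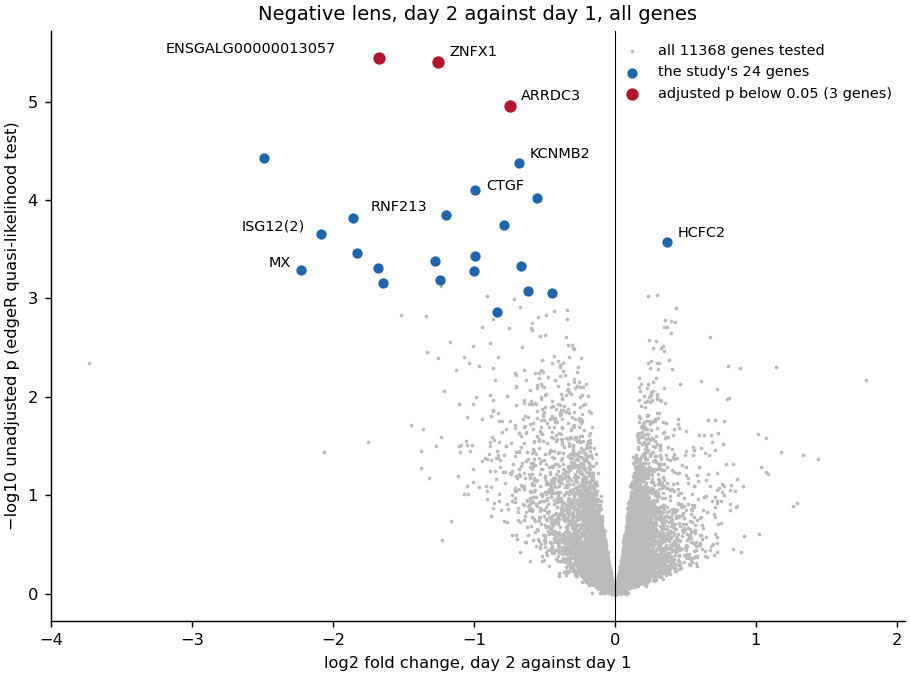
Change of each of the 11368 genes tested under the negative lens, with the log2 fold change of day 2 against day 1 on the horizontal axis and the negative log10 of the unadjusted p-value on the vertical axis. The 3 genes past the adjusted threshold (red) and 23 of the study's 24 genes (blue where not red) lie on the left, below 0, and HCFC2 lies on the right.

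ENSGALG00000013057, annotated as a ubiquitin carboxyl-terminal hydrolase (an enzyme class that removes ubiquitin from proteins), had levels of 18.5, 11.8, 20.6 and 19.3 CPM in the 4 chicks of day 1. On day 2 it had 5.77, 5.70, 5.79 and 4.61 CPM. Every chick of day 2 was lower than every chick of day 1, and day 1 chick 2 was the lowest of its day. The log2 fold change was -1.67 (standard error 0.22, adjusted p = 0.0224, edgeR quasi-likelihood test). The tissue was measured in bulk, so fewer cells of a type and less RNA per cell cannot be told apart here or in the results that follow.

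ZNFX1, an RNA-binding helicase family gene induced by interferon in mammals, had 37.2, 26.6, 41.4 and 39.3 CPM on day 1. On day 2 it had 18.0, 15.4, 15.01 and 11.8 CPM. The days did not overlap, and day 1 chick 2 was again the lowest of its day. Its log2 fold change was -1.25 (standard error 0.17, adjusted p = 0.0224, edgeR).

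ARRDC3 encodes an arrestin-domain protein that in mammals takes part in the turnover of adrenergic receptors and in energy balance. It had 141, 134, 168 and 143 CPM on day 1 and 88.2, 97.0, 71.4 and 88.3 CPM on day 2. The highest chick of day 2 lay well under the lowest of day 1. The log2 fold change was -0.75 (standard error 0.11, adjusted p = 0.0416, edgeR).

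The edgeR calls depended on single chicks. Without day 1 chick 1, 3 or 4, or without day 2 chick 2 or 3, edgeR called 0 genes, with smallest adjusted p-values of 0.0513 to 0.145. In these 5 fits 517 to 833 genes had an unadjusted p-value below 0.05. DESeq2 without 1 chick passed 14 to 43 genes, each time with ENSGALG00000013057, ZNFX1 and ARRDC3 among them. With 1 chick or both chicks that stood apart left out, the edgeR log2 fold changes stayed similar. They ran from -1.81 to -1.59 for ENSGALG00000013057, -1.37 to -1.15 for ZNFX1 and -0.82 to -0.68 for ARRDC3. Without day 1 chick 2 the 3 genes called were ENSGALG00000013057, ZNFX1 and ISG12(2), without day 2 chick 1 they were ENSGALG00000013057, ZNFX1 and SLC15A2, and without day 2 chick 4 the 1 gene called was C7. SLC15A2, a peptide transporter gene, is named after its values were seen. Without both chicks that stood apart, edgeR called 2 genes, ZNFX1 and SLC15A2, and DESeq2 passed 39.

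Of the interferon response genes 14 were lower on day 2 at an unadjusted p-value below 0.05, and none was higher. The list held 74 symbols, of which 52 were in the count table and 44 passed the filter on low counts. Of these 44, 34 had a negative log2 fold change, 11 did not overlap between the days, and 1, ZNFX1, passed the adjusted test. Over all 11368 genes tested, 3.57% were lower at an unadjusted p-value below 0.05 and 2.38% lay wholly lower on day 2. DESeq2 passed 6 of them. Their median log2 fold change was -0.37 beside 0.02 over all genes tested, and -0.37 also without both chicks that stood apart.

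The antiviral effectors, the proteins that block viral replication, made up 11 of the 14 genes that were lower. Of 22 tested, 19 had a negative log2 fold change, and the median was -0.45. At an unadjusted p-value below 0.05, 11 were lower, beside 3.57% of all genes tested. MX, a GTPase that traps viral components, had 24.5, 7.21, 20.1 and 19.4 CPM on day 1 and 5.29, 2.94, 5.79 and 1.60 CPM on day 2. The days did not overlap, although day 1 chick 2 lay close to the day 2 range. For MX the log2 fold change was -2.23 (standard error 0.49, adjusted p = 0.312 in edgeR and 0.00447 in DESeq2).

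CMPK2, a mitochondrial nucleotide kinase induced by interferon, had 20.6, 9.52, 23.2 and 22.1 CPM on day 1 and 8.41, 4.99, 6.22 and 4.21 CPM on day 2. RNF213, a very large ubiquitin ligase, had 39.7, 26.6, 36.9 and 38.8 CPM on day 1 and 16.8, 15.9, 19.3 and 9.61 CPM on day 2. Neither gene overlapped between the days. Their log2 fold changes were -1.68 (standard error 0.37) for CMPK2 and -1.20 (standard error 0.23) for RNF213.

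ISG12(2), an interferon-stimulated gene of unsettled function, had 9.13, 2.89, 14.1 and 9.05 CPM on day 1 and 2.88, 1.34, 2.57 and 1.80 CPM on day 2. Its log2 fold change was -2.09 (standard error 0.42), and day 1 chick 2 was almost level with the highest chick of day 2. ZC3HAV1, the zinc finger antiviral protein gene, which marks viral RNA for decay, had 20.1, 15.6, 17.5 and 16.4 CPM on day 1 and 11.5, 7.39, 8.36 and 7.61 CPM on day 2. Here the log2 fold change was -0.997 (standard error 0.22). By edgeR the adjusted p-values of CMPK2, RNF213, ISG12(2) and ZC3HAV1 lay between 0.192 and 0.312, and by DESeq2 all 4 passed. Further effectors with a lower level at an unadjusted p-value below 0.05 were EPSTI1, with a log2 fold change of -1.52 (standard error 0.38), and OAS*A, an oligoadenylate synthetase gene, with -1.36 (standard error 0.52). EPSTI1 was measured at low levels, with means of 5.41 CPM on day 1 and 1.78 CPM on day 2.

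**Figure D2:**
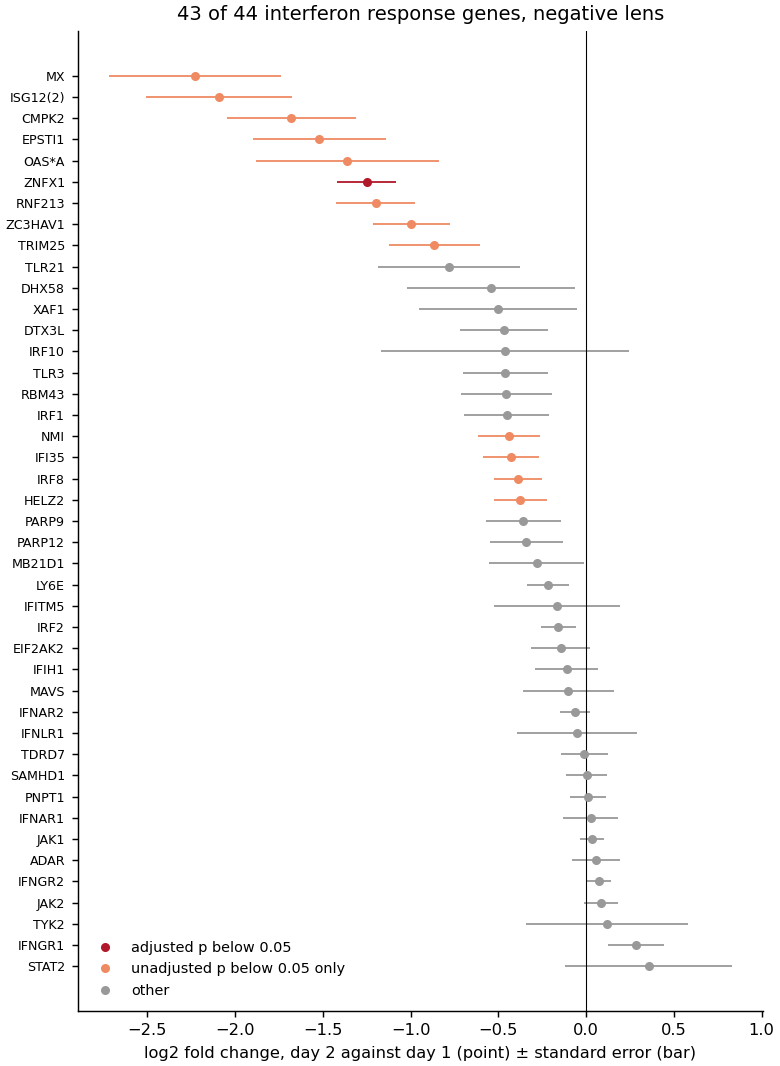
Log2 fold change of day 2 against day 1 (points) with its standard error (bars) for 43 of the 44 interferon response genes tested, ordered by size. ZNFX1 alone passed the adjusted test, 12 further genes drawn had an unadjusted p-value below 0.05, and all 13 lie left of 0.

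At an unadjusted p-value below 0.05, 1 of 8 sensor genes and 2 of 14 receptor and signalling genes were lower. None was higher, and none passed the adjusted test. Over all genes tested 3.57% were lower at an unadjusted p-value below 0.05. All 8 genes tested in the group of sensors of viral nucleic acid had a negative log2 fold change, with a median of -0.37. The 1 of them that was lower at an unadjusted p-value below 0.05 is not itself a sensor. That gene was TRIM25, a ubiquitin ligase that activates an RNA sensor in mammals, at -0.865 (standard error 0.26). Of 14 receptor and signalling genes, 7 had a negative and 7 a positive log2 fold change, with a median of -0.01. The transcription factor gene IRF8 was lower at an unadjusted p-value below 0.05, at -0.39 (standard error 0.14). The receptor genes IFNAR1, IFNAR2, IFNGR1 and IFNGR2 had log2 fold changes of 0.03, -0.06, 0.29 and 0.07, each with an unadjusted p-value above 0.05. STAT2, a transcription factor of the type I response, had 0.36 with a standard error of 0.475.

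Summarised in each chick as the mean log2 CPM of the 44 genes relative to the day 1 mean, the interferon list stood at -0.07, -0.12, 0.06 and 0.13 on day 1 and at -0.53, -0.39, -0.36 and -0.525 on day 2. The days did not overlap. The list was chosen with earlier results of these data known and holds genes selected on these same chicks. Neither this separation nor the place of the other groups beside it is therefore independent evidence. The same quantity was -0.34 to -0.11 in the 3 No Lens chicks of day 1 and -0.37 to -0.15 in the 3 of day 2. It was -0.40 to -0.20 in the 4 positive lens chicks of day 1 and -0.44 to -0.285 in the 4 of day 2. Of the No Lens and positive lens chicks of days 1 and 2, No Lens chick 3 of day 1, at -0.11, was the 1 that lay above the lowest negative lens chick of day 1, at -0.12. A single No Lens chick of day 3 reached 0.26, with 34.7 CPM of MX, while the other 3 of its group lay between -0.53 and -0.36.

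**Figure D3:**
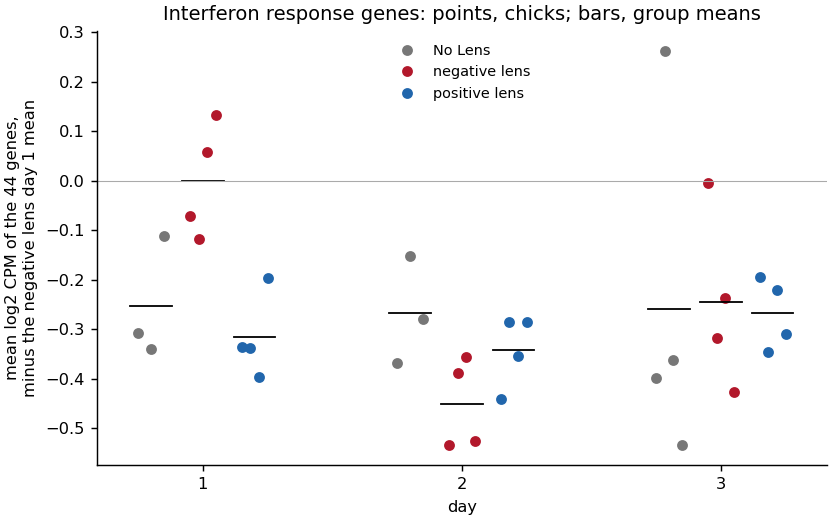
Mean log2 CPM of the 44 interferon response genes in each of the 34 chicks (points) and as group means (bars), by day and lens, relative to the mean of the negative lens chicks of day 1. The 4 negative lens chicks of day 1 lie between -0.12 and 0.13 and those of day 2 between -0.53 and -0.36.

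The complement gene C7 and the peptide-trimming enzyme gene ERAP1 also fell in DESeq2, while no other gene of their lists passed in edgeR or DESeq2. Both C7 and ERAP1 are among the study's genes, which were selected on these same chicks. C7, a component of the terminal complement complex, had 31.1, 42.7, 32.3 and 46.6 CPM on day 1 and 10.6, 10.6, 14.2 and 29.8 CPM on day 2, so that day 2 chick 4 alone came near the day 1 range. The log2 fold change of C7 was -1.24 (standard error 0.28, adjusted p = 0.365 in edgeR and 0.00769 in DESeq2). C1S, a protease that starts the complement cascade, overlapped between the days and had a value of -1.003 on the log2 scale (standard error 0.28, unadjusted p = 0.00305 in edgeR). These were the 2 of 11 complement genes tested that were lower at an unadjusted p-value below 0.05, beside 3.57% of all genes tested. The median of the list was -0.08. That median rested on single chicks, as it was -0.425 without day 2 chick 2 and 0.05 without day 1 chick 4.

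ERAP1, which trims peptides for display on MHC class I molecules, had 40.5, 31.7, 47.6 and 43.4 CPM on day 1 and 30.3, 25.6, 24.2 and 25.8 CPM on day 2, without overlap. Its log2 fold change was -0.62 (standard error 0.14). It was the 1 of 13 antigen processing genes that was lower at an unadjusted p-value below 0.05, beside 3.57% of all genes tested. The median of the list was -0.165 (-0.28 to -0.04 with 1 chick left out). B2M and BF1 of the class I complex had -0.26 (standard error 0.42) and -0.17 (standard error 0.23). IL1RL1, a receptor of the interleukin 1 family, had 43.4, 32.3, 46.7 and 48.4 CPM on day 1 and 32.0, 21.5, 25.9 and 29.0 CPM on day 2. The lowest chick of day 1 and the highest of day 2 were nearly level, with -0.66 for the log2 fold change (standard error 0.14). ENSGALG00000009771, annotated as a C-type lectin-like gene, had 18.1 to 32.6 CPM on day 1 and 2.16 to 11.2 CPM on day 2, and its log2 fold change was -1.83 (standard error 0.38). Of these, ERAP1, IL1RL1 and ENSGALG00000009771 passed in DESeq2 and in edgeR's likelihood ratio test, and none in its quasi-likelihood test.

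Most markers of immune cells also had a negative log2 fold change. Of 8 macrophage and microglia markers tested, 7 had a negative log2 fold change, and the median was -0.30 beside 0.02 over all genes tested. At an unadjusted p-value below 0.05, 2 of these markers (MARCO and TLR4) were lower, beside 3.57% of all genes tested. Their summed level was 103 to 105 CPM on day 1 and 76.3 to 104.5 CPM on day 2, and the defining marker CSF1R had 70.1 and 62.6 CPM with -0.15 for the log2 fold change (standard error 0.12). Taken instead as the mean log2 level of the 8 markers relative to the day 1 mean, the days did not overlap, with -0.14 to 0.14 on day 1 and -0.54 to -0.22 on day 2. Of 9 genes of the lymphocyte list with counts, 2 passed the filter. They were PTPRC, which is not confined to lymphocytes, at -0.49 (standard error 0.16, no overlap) and CD3E at -0.84 (standard error 0.43). The summed level of the 9 was 16.8 to 21.1 CPM on day 1 and 13.3 to 18.6 CPM on day 2. No marker of either list was at 0 in all 8 chicks. The part of these cells in the decrease of interferon and complement genes was not tested.

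**Figure D4:**
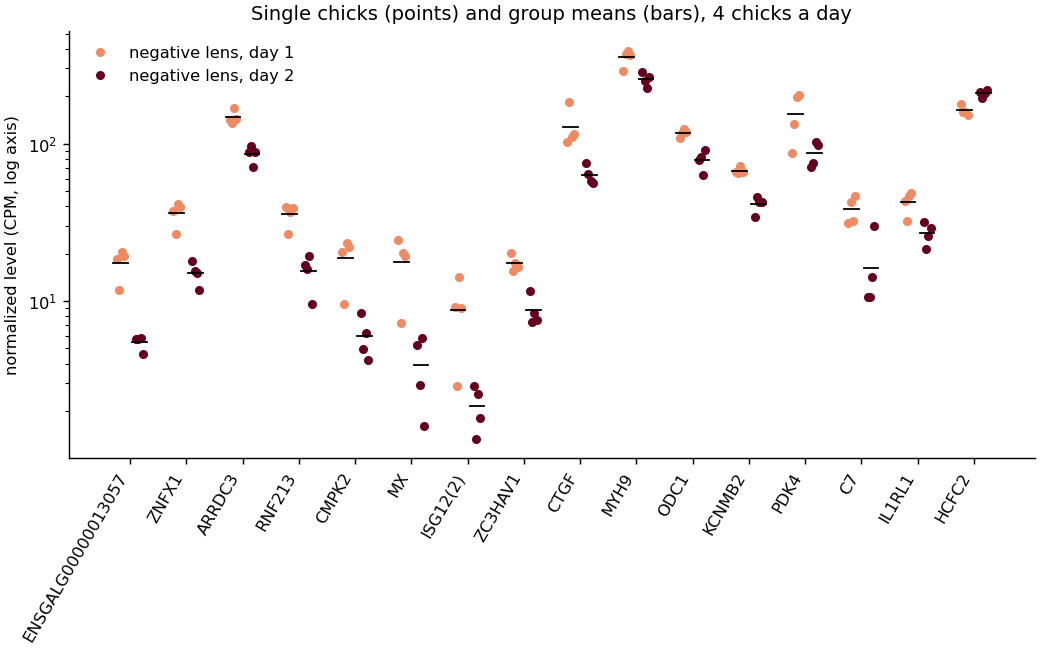
Normalized level (CPM, log axis) of 16 genes in the 4 negative lens chicks of day 1 (light) and the 4 of day 2 (dark), with points for chicks and bars for means. For each gene shown other than PDK4 the days do not overlap, and HCFC2 alone is higher on day 2.

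Among genes of the actin cytoskeleton and of the mechanical response, CTGF and MYH9 fell in DESeq2. Of 34 tested, 29 had a negative log2 fold change, and the median was -0.12 beside 0.02 over all genes tested. At an unadjusted p-value below 0.05, 7 were lower, beside 3.57% of all genes tested, and none was higher. None passed the adjusted quasi-likelihood test of edgeR, and 2 passed in DESeq2. Like the other gene lists here, this list was chosen with earlier results of these data known. CTGF and MYH9 are among the study's genes, which were selected on these same chicks, so the counts are no independent evidence. CTGF, a matrix-associated growth factor and a target of the stretch-responsive YAP pathway, had 102.5, 182, 111 and 115 CPM on day 1 and 75.0, 64.1, 58.1 and 55.9 CPM on day 2. Day 1 chick 2 stood far above its group, and the days did not overlap without it either. For CTGF the log2 fold change was -0.99 (standard error 0.18, adjusted p = 0.152 in edgeR and 8.51e-05 in DESeq2).

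MYH9, the heavy chain of a non-muscle myosin, had 288.5, 370, 389 and 367 CPM on day 1 and 283, 250.5, 227 and 265 CPM on day 2. Chick 1 of day 1 was the lowest of its group and chick 1 of day 2 the highest of its own, so that they nearly met. Its log2 fold change was -0.45 (standard error 0.105, adjusted p = 0.398 in edgeR and 0.0288 in DESeq2). TES, a LIM-domain protein gene of focal adhesions, had -0.91 (standard error 0.215) and did not overlap. The other 4 were MYLK, a kinase that activates myosin, at -0.25, TEAD1, the DNA-binding partner of YAP, at -0.32, the focal adhesion gene ZYX at -0.205 and the actin cross-linker ACTN1 at -0.26.

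Extracellular matrix genes also had mostly negative log2 fold changes. Of 34 tested, 28 had a negative log2 fold change, and the median was -0.11 beside 0.02 over all genes tested. At an unadjusted p-value below 0.05, 6 were lower, beside 3.57% of all genes tested, and none passed the adjusted test. The 6 were LAMA4, a laminin chain of vessel walls, at -0.41 (standard error 0.12), TNC at -0.70 (standard error 0.21), FN1 at -0.62 (standard error 0.22), SPARCL1 at -0.45 (standard error 0.16), SPARC at -0.315 (standard error 0.12) and COL6A2 at -0.51 (standard error 0.21). LAMA4 and SPARCL1 did not overlap between the days. FN1, the fibronectin gene, had 485, 1123, 1060 and 1091 CPM on day 1 and 641, 584, 416 and 780 CPM on day 2, with day 1 chick 1 far below its group. Without both chicks that stood apart the median of the matrix list was -0.25. DESeq2 then passed the matrix genes FN1 (-0.65), FBLN2 (-0.57), COL6A2 (-0.51), COL4A1 (-0.41) and COL4A2 (-0.41, shrunken log2 fold changes). Of these, FBLN2 and the collagen IV genes of basement membranes are named after their values were seen.

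Most markers of vessel wall cells had negative log2 fold changes as well. Over all genes tested the median was 0.02, and 3.57% were lower at an unadjusted p-value below 0.05. All 7 smooth muscle and pericyte markers tested had a negative log2 fold change, none at an unadjusted p-value below 0.05, with a median of -0.24. The summed level of the 8 smooth muscle and pericyte markers with counts was 359.5 to 663 CPM on day 1 and 395 to 475 CPM on day 2. MYH11 had a log2 fold change of -0.20 (standard error 0.19). Of 10 endothelial markers 8 had a negative log2 fold change and 1 (ROBO4) was lower at an unadjusted p-value below 0.05, with a median of -0.18 and a summed level of 592 to 725 CPM on day 1 and 560 to 615 CPM on day 2. The part of vessel wall cells in the cytoskeletal and matrix changes was not tested. Over the same days without a lens the smooth muscle median was -0.30, and the matrix and actin medians were -0.12 and -0.11. Under the positive lens these 3 medians were -0.01, 0.00 and -0.02.

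Genes of fuel use held the called gene ARRDC3 and 4 others that were lower at an unadjusted p-value below 0.05, of 27 tested. Over all genes tested 3.57% were lower. The median of the list was -0.04 beside 0.02 over all genes tested. ARRDC3 and PDK4 are among the study's genes, which were selected on these same chicks. PDK4, a kinase that turns off pyruvate dehydrogenase and so spares glucose, had 86.6, 133, 197 and 203.5 CPM on day 1 and 70.9, 75.5, 102 and 97.7 CPM on day 2. Day 1 chick 1 fell within the day 2 range, so the days overlapped. For PDK4 the log2 fold change was -0.84 (standard error 0.21, adjusted p = 0.468 in edgeR and 0.0231 in DESeq2). CPT1A, which commits fatty acids to mitochondrial oxidation, had 148, 220, 167 and 185 CPM on day 1 and 142, 123, 142 and 146 CPM on day 2, without overlap and with a log2 fold change of -0.37 (standard error 0.11). CPT2, its partner at the inner membrane, had -0.33 (standard error 0.13), and ACSL5, a fatty acid activating enzyme gene, had -0.71 (standard error 0.22).

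ODC1, the rate-limiting enzyme of polyamine synthesis, had 109, 117, 124 and 118 CPM on day 1 and 78.3, 82.4, 63.0 and 91.3 CPM on day 2. The groups were well apart, and the log2 fold change was -0.56 (standard error 0.10, adjusted p = 0.157 in edgeR and 0.000591 in DESeq2). SAT1, which breaks polyamines down, had 0.35 (standard error 0.14, unadjusted p = 0.0227 in edgeR), and the remaining 9 of the 11 polyamine genes tested had unadjusted p-values above 0.05.

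KCNMB2, an accessory subunit of the large-conductance calcium-activated potassium channel, had 66.2, 64.6, 72.1 and 65.7 CPM on day 1 and 34.4, 46.1, 42.7 and 42.3 CPM on day 2. The groups did not overlap, and the log2 fold change was -0.68 (standard error 0.11, adjusted p = 0.0964 in edgeR and 0.000274 in DESeq2). The transporter genes ABCB1LB, of the drug efflux family, and SLCO2B1, an organic anion carrier, also fell in DESeq2. ABCB1LB had 38.4 to 67.3 CPM on day 1 and 24.2 to 32.4 CPM on day 2, with a log2 fold change of -0.99 (standard error 0.21), and SLCO2B1 had 8.14 to 10.7 CPM on day 1 and 2.16 to 5.61 CPM on day 2, with -1.27 (standard error 0.27). ENSGALG00000006384, ENSGALG00000012072, ENSGALG00000019141 and ENSGALG00000009479 carry no gene name in the table, and their log2 fold changes were -1.86, -0.79, -2.49 and -1.65. None of the 4 overlapped between the days, and ENSGALG00000019141 lay at 0.21 to 3.35 CPM and was covered by 1 read in 1 of the 8 chicks. ENSGALG00000009479 had as few as 5 reads in a chick.

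No increase passed edgeR's quasi-likelihood test after adjustment, and HCFC2 alone passed its likelihood ratio test (adjusted p = 0.0224). HCFC2, a host cell factor gene of chromatin complexes, had 178, 160, 159 and 153 CPM on day 1 and 212, 194, 208 and 218.5 CPM on day 2. Its log2 fold change was 0.37 (standard error 0.08, adjusted p = 0.255 in edgeR and 0.0247 in DESeq2), and it was the 1 gene that rose in DESeq2. The other 11 of the 12 increases with the smallest p-values and no overlap had log2 fold changes of 0.23 to 0.67 and adjusted p-values of 0.398 to 0.535 in edgeR. They were FBXO33, ITCH and USP28 of the ubiquitin system, the transcription and RNA processing genes MED28 and INTS7, the centrosome and cilium genes CEP192 and CC2D2A, the mitochondrial ribosome gene MRPS6, CLMN, CTNNAL1 and the kinase gene WNK2. Of these 12 MRPS6 had the largest log2 fold change, with 30.9, 27.4, 19.2 and 33.3 CPM on day 1 and 52.9, 40.3, 43.3 and 41.1 CPM on day 2.

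The circadian clock, glucocorticoid response and immediate early gene lists are given as values, and any part of the timing or handling of the chicks was not tested. Per the study's methods, tissue was collected within the same afternoon hours on each day, with collection order balanced across the lens groups. For every count in this paragraph, the share over all genes tested was 3.57% lower at an unadjusted p-value below 0.05, and the median was 0.02. Of 19 circadian clock genes and 12 glucocorticoid response genes tested, none had an unadjusted p-value below 0.05, and the medians were 0.01 and -0.04. Of 13 immediate early genes MYC alone was lower at an unadjusted p-value below 0.05, at -0.53 (standard error 0.24), and the median was -0.08. Of 26 BMP and TGF-beta genes 2 were lower, SMAD9 at -0.48 (standard error 0.20) and TGFBI at -0.39 (standard error 0.17), and the median was -0.13. Of 22 chaperone and heat shock genes 3 were lower, and these were the gene named HSP70 in the table at -0.43 (standard error 0.11), the endoplasmic reticulum chaperone HSPA5 at -0.43 (standard error 0.13) and HSPB1 at -1.75 (standard error 0.71). HSPB1 lay near the floor, at means of 4.15 and 1.2 CPM and with as few as 1 read in a chick. Its days overlapped, and its shrunken log2 fold change in DESeq2 was -0.13. The median of that list was 0.03, and -0.06 without both chicks that stood apart. Markers of cones, bipolar, amacrine, ganglion and horizontal cells, Mueller glia, the pigment epithelium and melanocytes had medians from 0.00 to 0.18, and none of them passed an unadjusted p-value of 0.05. Rod markers had a median of -0.10, with 7 of 9 negative and 1 lower at an unadjusted p-value below 0.05.

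Whether the change belonged to the negative lens was asked by setting it against the change over the same days in the other conditions, all 34 chicks being fitted together. No gene passed for the difference from the No Lens change, with 0 of 11882 genes (0%) at an adjusted p-value below 0.05 and 362 at an unadjusted p-value below 0.05, of which 237 had the lower change under the negative lens (1.99%). None passed for the difference from the positive lens change (0%), with 267 genes at an unadjusted p-value below 0.05 and 187 of them lower (1.57%). DESeq2 without shrinkage passed 3 genes for the difference from No Lens and 0 for that from the positive lens. The 3, named after their values were seen, were ENSGALG00000013057 and F2RL1, a protease-activated receptor gene, with differences of -2.19 and -2.99, and GTF2H4, a transcription factor subunit gene, with 0.54. Between day 1 and day 2 edgeR called 0 of 11460 genes (0%) in No Lens chicks and 0 of 11432 (0%) in positive lens chicks, where 573 and 162 had an unadjusted p-value under 0.05. The edgeR count to set beside these is the 3 genes of the negative lens. DESeq2 was not run here on these 2 changes. With that tool the study lists genes over time in No Lens chicks and none in positive lens chicks.

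ENSGALG00000013057 had 6.39 to 9.66 CPM in the No Lens chicks of day 1 and 5.90 to 13.6 CPM in those of day 2. The difference of its negative lens change from its No Lens change was -2.18 (standard error 0.43, adjusted p = 0.204, edgeR), the smallest adjusted p-value of that test. Without No Lens day 2 chick 3 it was the 1 gene called (adjusted p = 0.0186, edgeR), and without negative lens day 2 chick 3 the 1 gene called was F2RL1 (adjusted p = 0.0268, edgeR). ZNFX1 had 18.5 ± 3.91 CPM (SD, n = 3) in the No Lens chicks of day 1 and 20.3 ± 6.6 CPM (SD, n = 3) in those of day 2, and the difference of changes was -1.42 (standard error 0.39). For MX the difference was -2.31 (standard error 1.05) and for CMPK2 -1.80 (standard error 0.63). Against the positive lens change the differences were -1.77 for ENSGALG00000013057, -1.37 for ZNFX1, -1.95 for MX and -1.70 for CMPK2. None of these differences passed edgeR's quasi-likelihood test when all chicks were kept. In edgeR's likelihood ratio test the difference of ENSGALG00000013057 from its No Lens change passed (adjusted p = 0.0107). Of the interferon list 10 of 47 genes tested were lower in the difference from No Lens at an unadjusted p-value below 0.05. The share over all genes tested was 1.99%. In the difference from the positive lens 9 were lower, beside 1.57% of all genes tested. The list holds genes selected on these same negative lens chicks, so these counts are no independent evidence. The median change of that list over days 1 to 2 was 0.04 in No Lens chicks and -0.01 in positive lens chicks.

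ODC1, KCNMB2 and ARRDC3 had negative log2 fold changes in every condition, of which that of ARRDC3 under the negative lens alone passed in edgeR. The log2 fold change of ODC1 was -0.56 under the negative lens, -0.51 (standard error 0.11) without a lens and -0.45 (standard error 0.13) under the positive lens. For KCNMB2 the values were -0.68, -0.50 (standard error 0.17) and -0.35 (standard error 0.13), and for ARRDC3 they were -0.75, -0.34 (standard error 0.12) and -0.39 (standard error 0.13). The difference of the negative lens change from the No Lens change was -0.05 (standard error 0.17) for ODC1, -0.18 (standard error 0.21) for KCNMB2 and -0.42 (standard error 0.19) for ARRDC3, each with an adjusted p-value of 1 in edgeR. For CTGF the changes were -0.99, -0.21 (standard error 0.14) and -0.17 (standard error 0.16), and the difference from No Lens was -0.79 (standard error 0.26).

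**Figure D5:**
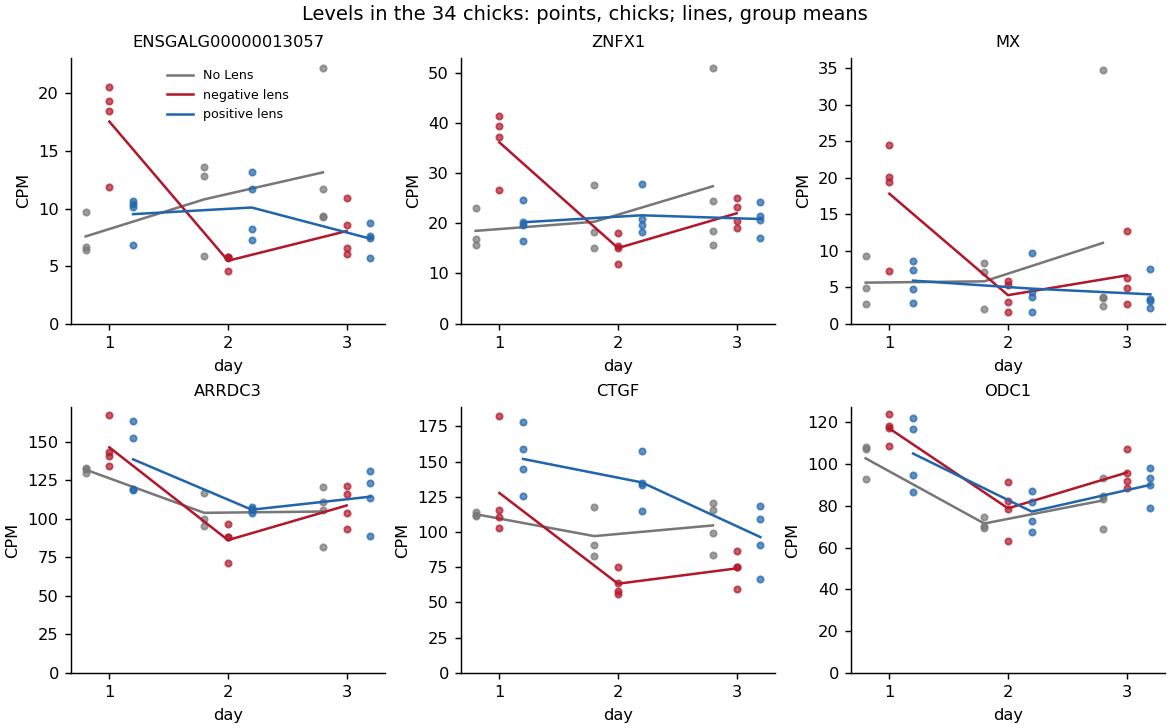
Levels of 6 genes (CPM, linear axis from 0) in all 34 chicks by day, with points for chicks and lines for group means of No Lens (grey), negative lens (red) and positive lens (blue). The means of ODC1 and ARRDC3 are lower on day 2 than on day 1 in all 3 conditions, and the red line of ENSGALG00000013057 goes from 17.6 to 5.46 CPM while the grey line goes from 7.58 to 10.8 CPM.

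The neighbouring contrasts share chicks with the change described here and are given beside it, without reading one from the other. Against No Lens chicks of the same day, 0 of 11448 genes (0%) passed on day 1 and 0 of 11410 (0%) on day 2 in edgeR, where 364 and 568 genes had an unadjusted p-value under 0.05. With DESeq2 the study reports differentially-expressed genes for this comparison on both days. DESeq2 was not run here on it, nor on the change from day 2 to day 3, so these counts are those of edgeR alone. ENSGALG00000013057 was above No Lens on day 1, with a log2 fold change of 1.19 (standard error 0.25), and below it on day 2, with -0.997 (standard error 0.31). ZNFX1 had 0.95 (standard error 0.20) on day 1 and -0.47 (standard error 0.24) on day 2. IL1RL1 had 0.83 (standard error 0.17) and -0.29 (standard error 0.25), and PDK4 had 1.10 (standard error 0.25) and 0.02 (standard error 0.21). CTGF had 0.17 (standard error 0.18) on day 1 and -0.63 (standard error 0.15) on day 2, and TES had -0.05 (standard error 0.27) and -1.45 (standard error 0.34). From day 2 to day 3 under the negative lens, 0 of 11368 genes (0%) passed in edgeR with 579 at an unadjusted p-value below 0.05, the median of the interferon list was 0.14, and ENSGALG00000013057 and ZNFX1 had log2 fold changes of 0.48 (standard error 0.23) and 0.53 (standard error 0.17). On day 3 ZNFX1 stood at 19.2 to 25.0 CPM, between its ranges of the earlier days.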

How the data were processed

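Raw counts of reads per gene were deposited by the authors for 13067 genes and 34 chicks. Per the study's methods, single-end reads were trimmed with CutAdapt and Trimmomatic, mapped to the chick genome GalGal4 with Tophat2 and Bowtie2, and reads mapping uniquely to a gene were counted with HTSeq, which can undercount genes that have a near-identical copy. Libraries were stranded, and whether the counting used strand is not stated in the sources used here. Groups were taken from the sample labels, and chicks were numbered within a group in accession order, so the numbers pair nothing. 1426 genes carry no symbol and are named by their identifiers. Depth ranged from 1592763 to 13765634 counts per chick over the series. The p-values set each change against the spread between chicks, and these chicks had been picked for strong and similar eye responses.

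Counts were analysed in R 4.3.3 with edgeR 4.0.16 (filterByExpr with a minimum count of 10 and a minimum total of 15, TMM, glmQLFit, glmQLFTest, Benjamini-Hochberg adjustment). The change from day 1 to day 2 was fitted on the 12 negative lens chicks, as the study fitted each lens condition, and its difference from the other conditions on all 34. Log2 levels used a prior count of 2. The changes in No Lens and positive lens chicks were fitted on the chicks of that condition. The negative lens was set against No Lens on all chicks of the same day. Every standard error and adjusted p-value of a single gene comes from these quasi-likelihood fits unless another test is named. The standard errors were taken as the absolute log2 fold change divided by the square root of the F statistic. DESeq2 1.42.0 shrank fold changes as in the study, except where stated. Limma 3.58.1 was an alternative, as were RLE size factors, no filter, the likelihood ratio test, other sets of chicks and leaving out each chick. DESeq2 with a chick left out, and leaving out both chicks that stood apart, were added after the data were seen. For any gene without overlap between the days, an exact permutation test of 4 against 4 chicks gives p = 0.0286, the smallest it can give. Scripts were tested on simulated data. Named genes were those called, the 12 with the smallest p-value and no overlap in each direction, the study's 24 genes, and up to 4 genes of each pathway list by p-value. Some genes counted in the lists are not reported here by name. Members and lists were chosen with earlier results of these data known.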

Additional observations from a re-analysis of the deposited data

Results flagged for a closer look

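Of 144 combinations of a named gene and a day, 10 held a chick far from the other 3 of its group by Dixon's test, where chance flags about 1 in 20. On day 1, CTGF was high in chick 2 at 182.4 CPM against 102.5 to 115.3 in the others, and ABCB1LB was low in the same chick at 38.38 CPM against 62.71 to 67.34. Chick 1 of day 1 was low for FN1, at 485.3 CPM against 1060 to 1123, and for NR4A2, at 23.87 CPM against 34.19 to 35.78. Chick 3 of day 1 was low for TES, at 6.702 CPM against 9.233 to 9.549, and high for CC2D2A, at 75.16 CPM against 70.69 to 71.17. Chick 4 of day 1 was high for USP28, at 39.33 CPM against 34.05 to 34.87. On day 2, ENSGALG00000013057 was low in chick 4 at 4.605 CPM against 5.698 to 5.789, LAMA4 was high in chick 2 at 60 CPM against 54.89 to 55.26, and TGFB2 was high in chick 3 at 18.01 CPM against 13.89 to 14.42.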

How the results depend on the processing

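The count of 3 genes stayed at 3 with RLE size factors and with no filter. It was 26 with the likelihood ratio test of edgeR, 7 with limma-voom, 23 with DESeq2 with or without shrinkage, 8 with all 34 chicks in the fit and 0 with only the 8 chicks of both days (smallest adjusted p 0.105, 567 genes at an unadjusted p below 0.05). It ranged from 0 to 3 with 1 chick left out, and DESeq2 then gave 43, 28, 18 and 17 genes without day 1 chicks 1 to 4 and 34, 19, 14 and 16 without day 2 chicks 1 to 4. Without both chicks that stood apart DESeq2 gave 39. For the difference from the No Lens change the count was 3 with the likelihood ratio test and 3 with DESeq2, and 0 to 1 with 1 chick left out. For the difference from the positive lens change it was 0 in every alternative. No named gene turned its direction in any alternative run on it. The adjusted p of ZNFX1 ran from 2.9e-08 to 0.145 over 17 alternatives and that of ARRDC3 from 7.76e-07 to 0.211. The median of the interferon list ran from -0.39 to -0.08, the latter with shrunken fold changes. No paired analysis was possible because the chicks of the 2 days were different animals. With 4 chicks a day and as few as 3447367 reads, genes of a few CPM rest on few reads. Counts in a chick went as low as 1 read for ENSGALG00000019141, 1 for HSPB1, 5 for ENSGALG00000009479 and 8 for MX.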

Other observations

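Markers of cells that the tissue should hold in small numbers were measured on both days. Of 10 skeletal muscle markers with counts, 6 were tested, with a median log2 fold change of -0.52 from day 1 to day 2. The summed level of the 10 was 29.7 to 74.7 CPM on day 1 and 31.1 to 44.3 CPM on day 2. ACTA1 was the 1 of the 6 tested that was lower at an unadjusted p-value below 0.05 in edgeR, at 11.7 and 5.45 CPM on average. Over all genes tested 3.57% were lower at that threshold. All 4 oligodendrocyte markers had a negative log2 fold change, with a median of -0.23, and MBP, the myelin basic protein gene, had 516 and 433 CPM. Erythrocyte markers summed to 2.89 to 8.87 CPM on day 1 and 5.15 to 12.6 CPM on day 2. CNGA1, a channel subunit of rods, was the 1 of 9 rod markers that was lower at an unadjusted p-value below 0.05, beside 3.57% of all genes. It had 64.4 and 49.4 CPM with a log2 fold change of -0.37 (standard error 0.11), whereas PDE6B, GNAT1 and SAG had unadjusted p-values above 0.05.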
